A study of Mus musculus with 2 samples.

Results

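Fc receptors bind the constant part of antibodies. Their genes Fcgr1, Fcgr2b, Fcgr3, Fcgr4, Fcer1g, Fcgrt and Fcer2a, with the Fc receptor-like gene Fcrla, were examined in antigen-presenting dendritic cells (DCs) of the mouse spleen. The genes were chosen by name, with earlier results of these data known. Of the 45101 probe sets (groups of short oligonucleotide probes for a transcript) and 18194 genes on the array, 16 probe sets were annotated to exactly 1 of these 8 genes. The samples were CD8+ DCs and CD8- DCs of C57BL/6 mice. All mice had first received B16 melanoma cells, a tumour line of the same species, in the back. The tumour cells made Flt3L, a growth factor that expands DCs, and spleens were taken 10 to 12 days later. CD11c+ cells lacking CD3 and B220 were sorted by CD8α and left unstimulated. Each population was hybridised to 1 Affymetrix array, so no value has a replicate and no test was made. Variation between mice, sorts and arrays cannot be told apart from a difference between the populations, and the labels do not say whether mice were pooled.

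Activating IgG receptors need a common partner, the γ chain, both to reach the cell surface and to signal. The γ chain carries an immunoreceptor tyrosine-based activation motif (ITAM), on which the kinase Syk docks. An inhibitory IgG receptor carries a motif of the opposite kind and recruits phosphatases. In DCs these receptors take up immune complexes and steer them into the pathways of antigen presentation.

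Values are log2 signals. A gene counted as measured if its higher signal reached 3.85, the median of all values, which is called the floor here. Each difference is CD8+ minus CD8-, and 2-fold, a log2 difference of 1, served as the threshold of size. For genes with several probe sets, the one brightest on average was used. The only spread available was technical, a pooled SD of 0.30 for the log2 differences of probe sets of the same gene. The arrays went with their labels. Cd8a was at 11.29 in CD8+ DCs, against 5.15 in CD8- DCs. Sirpa, which encodes a surface receptor of CD8- DCs, was at 4.49 in CD8+ DCs, against 8.69 in CD8- DCs. Itgax, which encodes CD11c, was at 9.80 in CD8+ DCs, against 10.69 in CD8- DCs, and all 6 listed conventional DC markers were above the floor on both arrays.

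Of the 8 genes, 7 were measured and 4 of them passed 2-fold. Fcrla was higher in CD8+ DCs, while Fcer1g, Fcgr3 and Fcgr4 were lower. Among all 11404 measured genes, 3.55% passed 2-fold on the higher side in CD8+ DCs and 5.97% on the lower side. At 4-fold there remained Fcrla on the higher side, against a background of 0.859%, and Fcer1g on the lower side, against 2.1%. At 1.5-fold, Fcrla and Fcgrt were higher (background 8.49%), and Fcer1g, Fcgr3, Fcgr4 and Fcgr2b were lower (background 11.5%). The median difference of the 7 genes was -0.68, against 0.03 over all measured genes. Fcgr3 was measured only through its CD8- value, so it had to be lower in CD8+ DCs to be counted, and these counts are given as a description. Fcer2a was below the floor on both arrays.

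**Figure D1:**
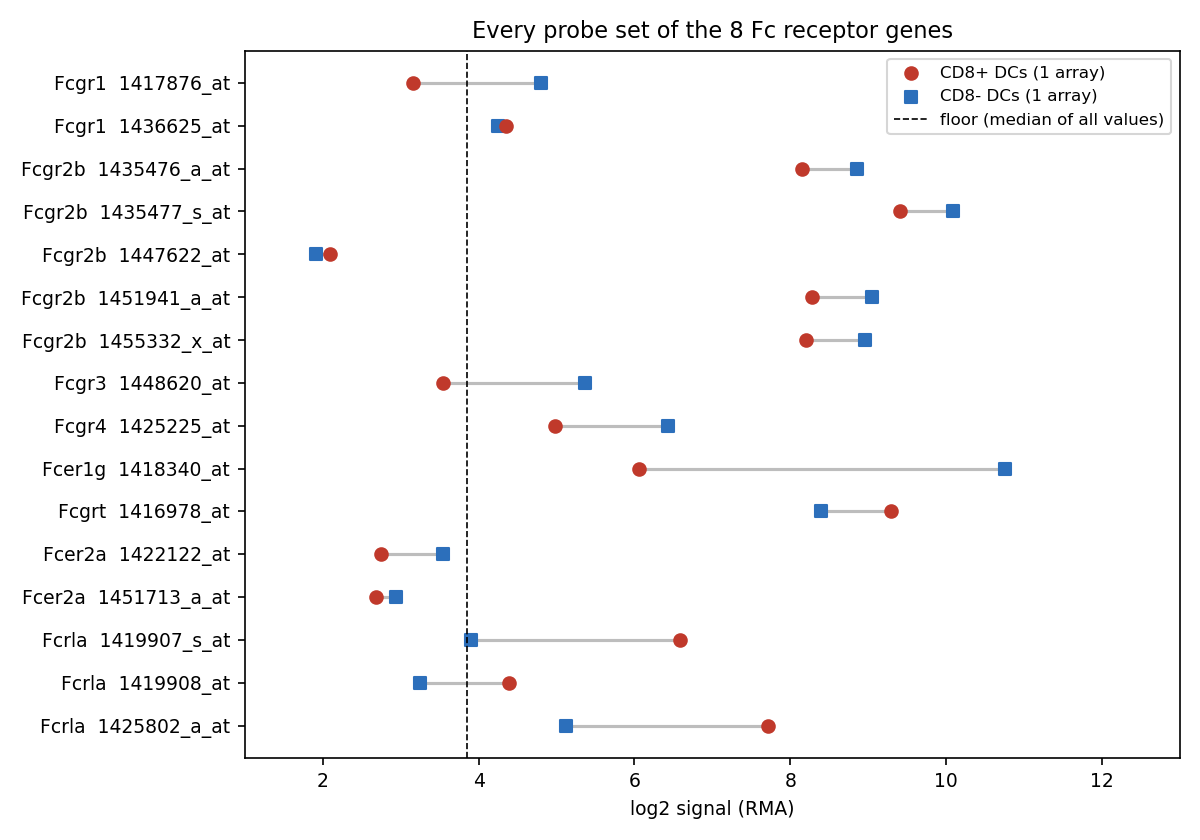
Log2 signal of all 16 probe sets of the 8 Fc receptor genes in CD8+ DCs (red circles) and CD8- DCs (blue squares), 1 array each, with the floor of 3.85 as a dashed line. The 4 bright Fcgr2b probe sets have gaps of nearly the same width, the 2 Fcgr1 probe sets differ in direction, and all 3 Fcrla probe sets are higher in CD8+ DCs.

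The common γ chain gene differed most. Fcer1g was at 6.06 in CD8+ DCs, against 10.76 in CD8- DCs, with both signals above the floor. It was 26.0-fold lower in CD8+ DCs, a log2 difference of -4.70, and the linear CD8+ signal was 3.84% of the CD8- signal. Counted from the lowest difference, Fcer1g was number 35 of the 11404 measured genes. Only 1 probe set reports it here. In bulk samples, fewer cells that express a gene and less of its RNA per cell cannot be told apart.

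**Figure D2:**
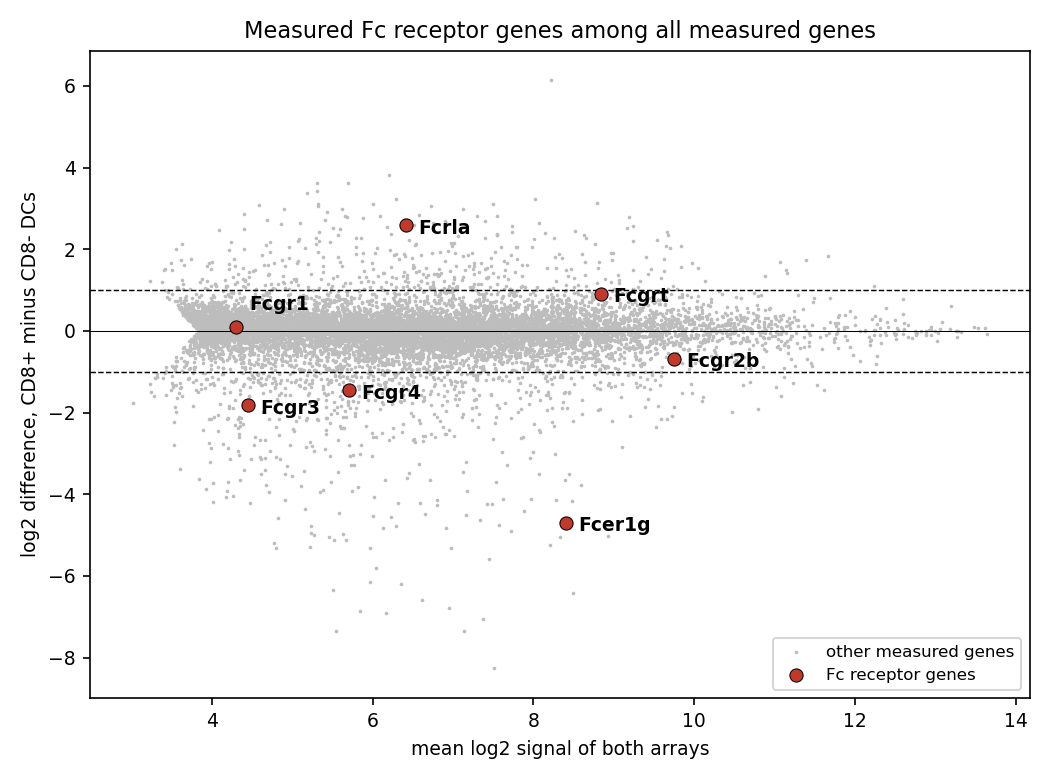
Log2 difference (CD8+ minus CD8- DCs) against the mean log2 signal of both arrays for all measured genes (grey) and the 7 measured Fc receptor genes (red), with 2-fold as dashed lines. Fcer1g lies at -4.70 and Fcrla at 2.58, and Fcgr1 is drawn from the brighter of its probe sets, at 0.10.

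Of the IgG receptors that signal through the γ chain, Fcgr3 and Fcgr4 were lower in CD8+ DCs, and the probe sets of Fcgr1 disagreed. Fcgr3, a low-affinity IgG receptor gene, was at 3.54 in CD8+ DCs, below the floor, against 5.36 in CD8- DCs. It was thus at least 2.86-fold lower in CD8+ DCs, and the difference of the deposited values was -1.82. Fcgr4, which encodes a receptor for IgG2a and IgG2b, was at 4.98 in CD8+ DCs, against 6.43 in CD8- DCs. This made it 2.73-fold lower in CD8+ DCs, a log2 difference of -1.45. Fcgr3 and Fcgr4 have 1 probe set each.

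Fcgr1 encodes CD64, the high-affinity IgG receptor. Its brighter probe set, 1436625_at, read 4.36 in CD8+ DCs, against 4.26 in CD8- DCs, a difference of 0.10. Its other probe set, 1417876_at, read 3.16 in CD8+ DCs, below the floor, against 4.81 in CD8- DCs, a difference of -1.65. On that probe set the deposited difference passes 2-fold in the direction of Fcgr3 and Fcgr4, and with the floor in place of the CD8+ value it is at least 1.95-fold lower in CD8+ DCs. The gap between the probe sets exceeds the pooled SD of 0.30, and which of them follows the transcript was not tested.

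Fcgr2b, the inhibitory IgG receptor gene, was clearly above the floor on both arrays and lower in CD8+ DCs by less than 2-fold. The probe set that stood for it read 9.40 in CD8+ DCs, against 10.08 in CD8- DCs, 1.60-fold lower in CD8+ DCs. Its 4 probe sets above the floor differed by -0.76 to -0.68, with a mean of -0.73 ± 0.04 (SD over probe sets, not over samples). The fifth, 1447622_at, was below the floor on both arrays, at 2.09 in CD8+ DCs and 1.91 in CD8- DCs. The difference of Fcgr2b was thus smaller than that of Fcgr3 or Fcgr4 on these arrays. The Fcgr2b and Fcgr3 transcripts share similar stretches, and cross-hybridisation was not tested. Signals of different probe sets do not give the ratio of activating to inhibitory receptors.

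The neonatal Fc receptor gene was higher in CD8+ DCs. Fcgrt encodes the heavy chain of FcRn, which binds IgG in acidic endosomes and pairs with β2-microglobulin. It was at 9.30 in CD8+ DCs, against 8.39 in CD8- DCs. That is 1.87-fold higher in CD8+ DCs, under the threshold, on its single probe set. The β2-microglobulin gene B2m, bright on both arrays, was at 12.90 in CD8+ DCs, against 13.14 in CD8- DCs. Its probe sets differed by -0.24 and -0.20. Both are smaller than the pooled SD of 0.30, which does not measure the spread between arrays, and no direction is given for B2m.

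Fcrla and Fcer2a, both best known from B cells, gave different pictures. Fcrla encodes a protein that stays inside the cell and binds immunoglobulin there. It was at 7.71 in CD8+ DCs, against 5.13 in CD8- DCs, 5.99-fold higher in CD8+ DCs (log2 difference 2.58). Its other probe sets read 6.59 and 4.39 in CD8+ DCs, against 3.91 and 3.24 in CD8- DCs. All 3 were higher in CD8+ DCs, by 1.15 to 2.68 as deposited. The 1.15 belongs to the probe set at 3.24 in CD8- DCs, which is below the floor, and with the floor in its place the difference comes to at least 1.46-fold. Counted from the highest difference, Fcrla was number 39 of the measured genes. Fcer2a encodes CD23, the low-affinity IgE receptor, which is a lectin. Its probe sets read 2.74 and 2.68 in CD8+ DCs, against 3.54 and 2.93 in CD8- DCs. All of these lie below the floor, so no direction is given.

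The Fc receptor genes of chromosome 1 form a cluster, and their differences did not share a direction. In RefSeq (GRCm38.p6) the protein-coding genes run in the order Fcrla, Fcgr2b, Fcgr4, Fcgr3 and, after 7 other genes, Fcer1g. Fcrla, the first of these, was higher in CD8+ DCs, and the other 4 were lower by 0.68 to 4.70 on the log2 scale. The stretch from the third gene before Fcrla to the third gene after Fcer1g holds 14 other protein-coding genes, of which 6 were measured. Among the 14, Fcrlb, next to Fcrla, is itself an Fc receptor-like gene and had no probe set annotated to it alone. None of the 6 passed 2-fold, and they differed by -0.51 (Tomm40l, a mitochondrial import protein gene) to 0.20 (Apoa2, an apolipoprotein gene). Over all measured genes, 3.55% passed 2-fold on the higher and 5.97% on the lower side in CD8+ DCs. With so few neighbours, none passing cannot be told apart from this background. Fcgr1, Fcgrt and Fcer2a lie on chromosomes 3, 7 and 8.

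**Figure D3:**
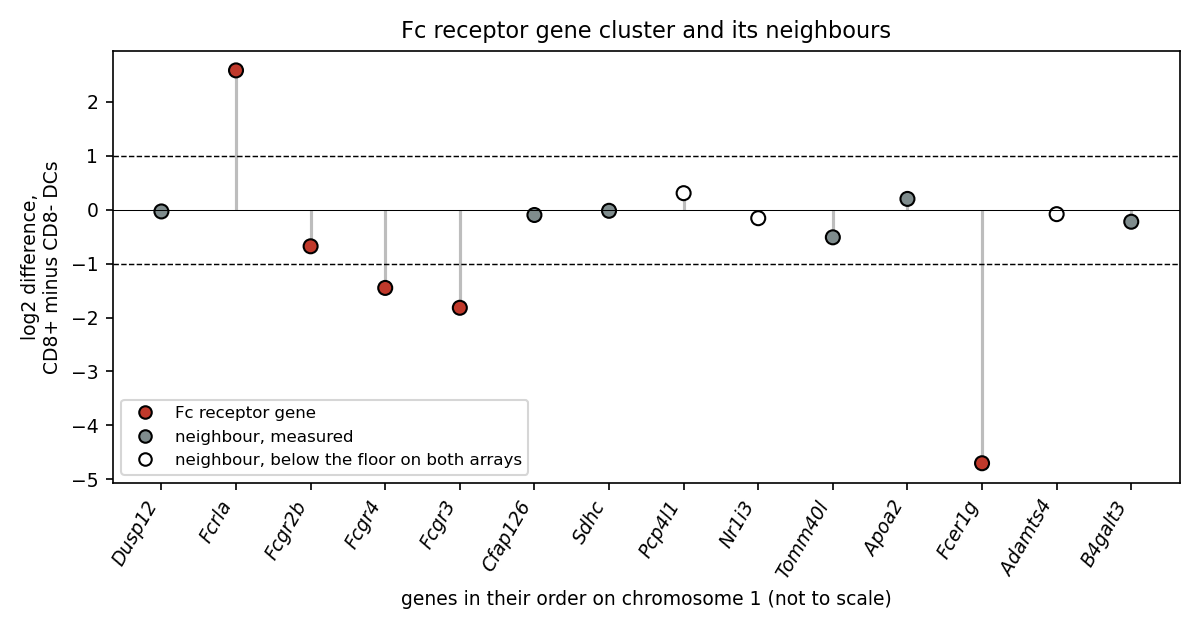
Log2 difference (CD8+ minus CD8- DCs) of the genes around the Fc receptor cluster of chromosome 1, in gene order and not to scale, for genes with a probe set. The 6 measured neighbours (grey) lie between -0.51 and 0.20, and the 5 Fc receptor genes (red) lie between -4.70 and 2.58.

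Promoter sequences are shown because 4 of the 8 genes share a run of letters close to the start of transcription, among them genes that differed in opposite directions. RefSeq windows (GRCm38.p6) of 300 bases, 250 before and 50 after the first listed start, were available for all 8 genes. The letters AGAGGAA, which contain the core of the PU box bound by the myeloid and B cell transcription factor PU.1, were searched on both strands after the sequences had been seen. They occur in Fcgr1, Fcgr3, Fcgr4 and Fcrla, each time on the other strand as TTCCTCT. The window of any gene held them in 10.5% of 27025 cases, and that of a measured gene in 9.27% of 9252. As the letters were picked after the sequences had been seen, the 4 of 8 genes cannot be read against these shares. The letters TTCNNNGAA, the pattern of STAT sites that interferon-γ acts through, were found in Fcgr1 alone, against 8.47% of all windows. The motifs do not overlap each other in these windows. The lines below give the 120 bases that end at the first transcribed base, 5′ to 3′ along the gene, with both motifs in capitals.
Fcgr1, chr3:96293969-96294088, minus strand: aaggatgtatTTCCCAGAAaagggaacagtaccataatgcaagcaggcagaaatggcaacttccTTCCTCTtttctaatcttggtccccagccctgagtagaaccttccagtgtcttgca
Fcgr3, chr1:171059403-171059522, minus strand: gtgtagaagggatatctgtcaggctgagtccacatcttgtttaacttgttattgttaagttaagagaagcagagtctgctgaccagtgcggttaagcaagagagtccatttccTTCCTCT
Fcgr4, chr1:171018807-171018926, plus strand: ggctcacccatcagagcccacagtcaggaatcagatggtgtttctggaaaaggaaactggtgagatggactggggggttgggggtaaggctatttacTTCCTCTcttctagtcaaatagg
Fcrla, chr1:170927583-170927702, minus strand: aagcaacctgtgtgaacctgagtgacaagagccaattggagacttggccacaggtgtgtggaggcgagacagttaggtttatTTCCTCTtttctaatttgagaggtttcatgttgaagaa
Fcer1g, chr1:171234349-171234468, minus strand: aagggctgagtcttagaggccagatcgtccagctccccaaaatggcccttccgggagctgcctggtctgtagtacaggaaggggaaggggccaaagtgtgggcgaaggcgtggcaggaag
Fcgr2b, chr1:170976071-170976190, minus strand: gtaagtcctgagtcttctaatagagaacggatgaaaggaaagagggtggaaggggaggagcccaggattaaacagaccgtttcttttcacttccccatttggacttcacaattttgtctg

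In these sequences TTCCTCT starts 55 bases before the start in Fcgr1, 37 in Fcrla, 22 in Fcgr4 and 6 in Fcgr3, where its last letter is the first transcribed base. Fcgr1 and Fcrla share the longest run of any pair, the 15 letters TTCCTCTTTTCTAAT, and their log2 differences were 0.10 (or -1.65 on the other probe set) and 2.58. Fcer1g and Fcgr2b are shown for contrast, as the gene with the largest difference and the gene whose probe sets were closest together, and hold neither motif in the window. A match is a description of letters, and binding was not measured. The RefSeq records of Fcgr3 and Fcrla reach further upstream than these starts, and that sequence was not searched.

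The partners of these receptors were described from 5 lists, by counts and medians. Over all measured genes, 3.55% passed 2-fold on the higher and 5.97% on the lower side in CD8+ DCs. Their median difference was 0.03. In the list of other Fc receptor genes, 10 of 13 had a probe set, 4 were measured and none passed 2-fold (median difference -0.12). Besides B2m they were Fcrl1, an Fc receptor-like gene of B cells, at 6.56 in CD8+ DCs, against 7.54 in CD8- DCs. Trim21, a cytosolic antibody receptor gene, was at 8.03 in CD8+ DCs, against 7.68 in CD8- DCs, and Fcgbp, which encodes an IgG-binding mucus protein, had 5.16 on both arrays. The chains of the high-affinity IgE receptor, Fcer1a and Ms4a2, were below the floor on both arrays, as were the polymeric immunoglobulin receptor gene Pigr, the IgM receptor gene Fcmr, and Fcamr and Fcrls.

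Of 7 other ITAM chains, 3 were measured and 1 passed 2-fold, with a median difference of -0.85. With so few genes the share cannot be read against the background. Tyrobp encodes DAP12, the ITAM adaptor that myeloid cells use beside the γ chain. It was at 11.04 in CD8+ DCs, against 11.89 in CD8- DCs, a difference of -0.85 where Fcer1g had -4.70. Cd79b, a B cell receptor chain gene, was at 3.28 in CD8+ DCs, below the floor, against 6.59 in CD8- DCs, at least 6.72-fold lower. Cd3e, a T cell receptor chain gene, was at 4.76 in CD8+ DCs, against 4.90 in CD8- DCs.

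Lectins and other receptors that pair with the γ chain had 9 genes with a probe set and 3 measured. All 3 were below the floor in CD8+ DCs, so they could only be counted as lower there, and their count and median are not read against the background. With the floor in place of these values, 2 of the 3 passed 2-fold. Clec4b1, which encodes the lectin DCAR, was at 2.94 in CD8+ DCs, against 7.97 in CD8- DCs, at least 17.5-fold lower. Cd300ld was at 3.43 in CD8+ DCs, against 6.85 in CD8- DCs, at least 8.04-fold lower. Clec4n, which encodes the fungal receptor dectin-2, was at 2.75 in CD8+ DCs, against 4.39 in CD8- DCs, close to the floor and at least 1.46-fold lower.

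The kinases and adaptors downstream of activating receptors mostly stayed under 2-fold. Of 23 measured, 4 were at least 2-fold lower in CD8+ DCs and none was higher by that much, with a median difference of -0.31. The Src family kinase gene Fgr was at 5.22 in CD8+ DCs, against 9.14 in CD8- DCs, 15.1-fold lower. Malt1, which encodes a paracaspase of the pathway from Syk to NF-κB, was at 6.85 in CD8+ DCs, against 9.28 in CD8- DCs. Tec, a Tec family kinase gene, was at 5.14 in CD8+ DCs, against 6.49 in CD8- DCs. Syk itself was at 6.70 in CD8+ DCs, against 7.73 in CD8- DCs, and its 4 probe sets differed by -1.68 to -0.99.

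Genes of the inhibitory side passed 2-fold in both directions, but of these only Ptpn6 did so on all its probe sets. Of 13 measured phosphatases and adaptors, 2 were at least 2-fold lower and 1 at least 2-fold higher in CD8+ DCs (median difference 0.03). Ptpn6, which encodes the phosphatase SHP-1, was at 8.81 in CD8+ DCs, against 10.68 in CD8- DCs, 3.66-fold lower, with its other probe set at -1.85. Inpp5d encodes SHIP-1, the lipid phosphatase that the Fcgr2b receptor recruits. It was at 10.31 in CD8+ DCs, against 9.72 in CD8- DCs, 1.51-fold higher, where Fcgr2b itself was 1.60-fold lower. The ubiquitin ligase gene Cblb was at 8.40 in CD8+ DCs, against 6.90 in CD8- DCs, 2.83-fold higher, but the lowest of its 3 probe sets differed by 0.21. Pag1, which encodes an adaptor for the inhibitory kinase Csk, was at 4.87 in CD8+ DCs, against 7.54 in CD8- DCs, but its 3 probe sets above the floor ranged from -2.67 to 0.51.

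**Figure D4:**
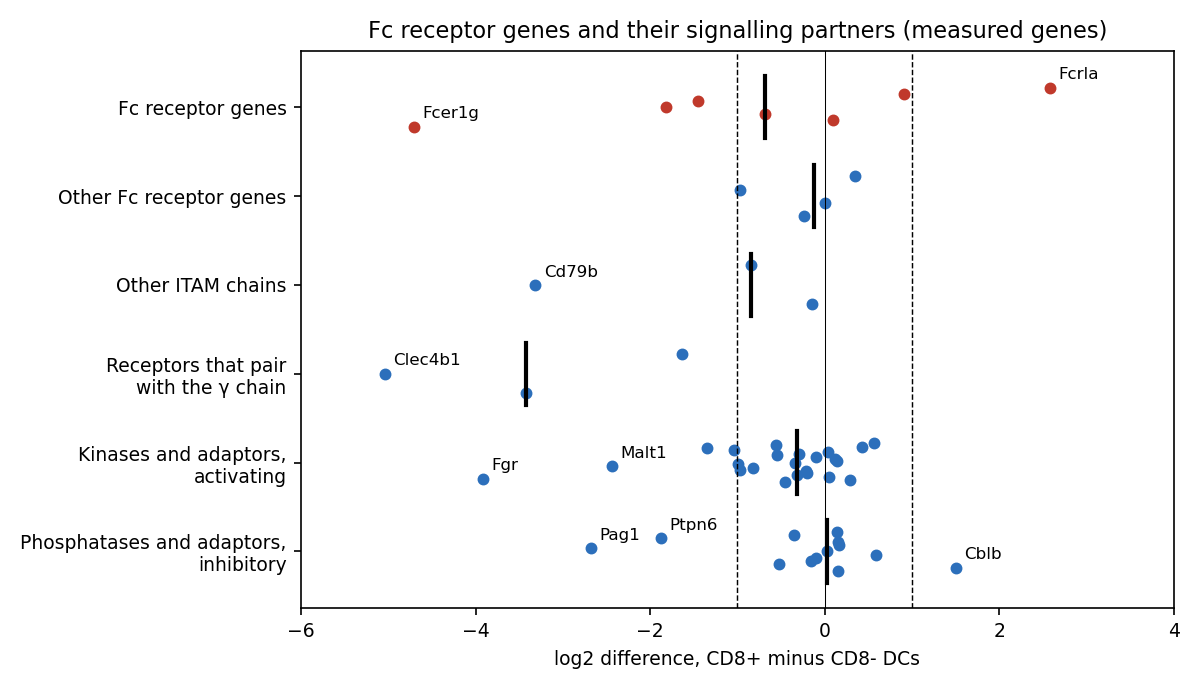
Log2 difference (CD8+ minus CD8- DCs) of each measured Fc receptor gene (red) and of the measured genes of the 5 partner lists (blue), with list medians as black bars and 2-fold as dashed lines. Fgr and Malt1 stand off from the other kinases and adaptors, whose list median is -0.31, and the 3 receptors that pair with the γ chain are drawn at their deposited differences, with CD8+ values below the floor.

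Of the 12 B cell markers, 10 had a probe set and 5 were measured, with 2 above 0 and 3 below 0. Their median difference was -0.10. The summed linear signal of the list was 1053 in CD8+ DCs, against 1188 in CD8- DCs, most of it from the IgM heavy chain gene Ighm (9.83 in CD8+ DCs, against 9.93 in CD8- DCs). The 5 probe sets of Ighm above the floor differed by -0.10 to 0.59, so the order of the sums is not read as a direction. Ms4a1, which encodes CD20, was at 5.74 in CD8+ DCs, against 4.99 in CD8- DCs, and the pre-B cell receptor gene Vpreb3, near the floor, was at 3.96 in CD8+ DCs, against 3.78 in CD8- DCs. Blk, a B cell kinase gene, differed by -0.30, and Cd79b, given above, was lower in CD8+ DCs. The B cell genes Cd79a, Pax5, Ebf1, Cr2 and Fcmr were below the floor on both arrays. The part of B cells in the Fcrla values was not tested.

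Of 9 monocyte markers, 7 had a probe set and 5 were measured, 2 with differences above 0, 2 below 0 and 1 at 0, which was also the median. The gene at 0 was Fn1, at 4.24 on both arrays, near the floor. In CD8+ DCs 2 of the 5 were at least 2-fold lower and 1 was at least 2-fold higher. Over all measured genes these shares were 5.97% and 3.55%, and with 5 genes the counts are not read against them. The summed linear signal of the list was 2020 in CD8+ DCs, against 3358 in CD8- DCs. The growth factor receptor gene Csf1r was at 6.40 in CD8+ DCs, against 10.56 in CD8- DCs, and the chemokine receptor gene Ccr2 at 6.03 in CD8+ DCs, against 9.32 in CD8- DCs. The 3 probe sets of Csf1r differed by -4.17 to -1.82, and the 4 of Ccr2 by -3.52 to -1.03. On the other side, the lysozyme gene Lyz2 was at 10.69 in CD8+ DCs, against 10.11 in CD8- DCs, and Cd14, which encodes an endotoxin co-receptor, was at 7.50 in CD8+ DCs, against 6.10 in CD8- DCs. F13a1 and Vcan were below the floor on both arrays.

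Of 10 red pulp macrophage markers, 6 were measured, 4 with differences below 0 and 2 above 0. The median difference was -1.73. The summed linear signal was 243 in CD8+ DCs, against 518 in CD8- DCs. Adgre1, a macrophage surface receptor gene, was at 4.63 in CD8+ DCs, against 8.22 in CD8- DCs. In CD8+ DCs the complement genes C1qa, C1qb and C1qc lay under the floor, against 5.30, 5.41 and 4.63 in CD8- DCs. These complement genes could only be counted as lower in CD8+ DCs. The counts and the median of the list are thus a description and are not read against the background. The heme oxygenase gene Hmox1 went the other way, at 6.80 in CD8+ DCs, against 5.65 in CD8- DCs, as did the adhesion molecule gene Vcam1, at 5.52 in CD8+ DCs, against 4.66 in CD8- DCs. The macrophage genes Spic, Cd5l, Mertk and Slc40a1 were below the floor on both arrays. The part of monocytes and macrophages in the values of Fcer1g, Fcgr3 and Fcgr4 was not tested.

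Other cells that the sort could hold were represented unevenly. The neutrophil genes S100a8, S100a9 and Mpo were below the floor on both arrays, while Csf3r was at 3.72 in CD8+ DCs, against 4.37 in CD8- DCs, and Ngp at 4.45 in CD8+ DCs, against 3.58 in CD8- DCs. The mast cell and basophil genes Cpa3 and Mcpt8 were below the floor on both arrays. Gata2 of the same list was near the floor, at 4.18 in CD8+ DCs, against 4.15 in CD8- DCs. The NK cell genes Ncr1 and Gzma were below the floor on both arrays. Prf1 of the NK list was near the floor, at 4.04 in CD8+ DCs, against 4.11 in CD8- DCs. Tbx21, a transcription factor gene of the NK list, was at 2.60 in CD8+ DCs, against 5.34 in CD8- DCs. All 8 plasmacytoid DC markers were measured. Siglech was at 3.71 in CD8+ DCs, against 4.04 in CD8- DCs, and Bst2 at 7.37 in CD8+ DCs, against 7.80 in CD8- DCs. The chemokine receptor gene Ccr9 was at 8.03 in CD8+ DCs, against 5.94 in CD8- DCs, and the transcription factor gene Tcf4 at 5.47 in CD8+ DCs, against 7.55 in CD8- DCs. The summed linear signal of the list was 605 in CD8+ DCs, against 596 in CD8- DCs. The part of these cells in the Fc receptor values was not tested.

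The genes most like each measured Fc receptor gene were sought among the measured genes, with predicted genes left out. They were taken as the 3 with the smallest distance between their pairs of log2 signals, over these 2 arrays only. For Fcer1g they were Clec7a, which encodes the fungal receptor dectin-1, at 5.80 in CD8+ DCs, against 10.85 in CD8- DCs, then Csf1r and Ms4a6b, at distances of 0.27, 0.39 and 0.44. For Fcrla they were Lima1, Cenpv and Ctla2b, at 0.15, 0.26 and 0.30. For Fcgr3 they were Mapk11, Gbp3 and Tnfsf14, and for Fcgr4 they were Prkce, Sgo2a and Bora. For Fcgr2b they were Ipo7, Fh1 and Ptger4, for Fcgrt Oxct1, Itgal and Frmd4b, and for Fcgr1, on its brighter probe set, Rab23, Zbtb12 and Aire. With 2 arrays, likeness says only that the signals were close on both.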

How the data were processed

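Total RNA of each sorted population was labelled as biotinylated cRNA and hybridised to an Affymetrix array. The deposited values are log2 signals per probe set that the authors made with RMA, as the submitters' processing notes state. This method subtracts background, gives arrays one common distribution and summarises the probes of each set, which hides any shift that most transcripts share. The sources used here give neither its version nor the arrays processed together, and no detection calls were used. The number of arrays limits the precision.

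Probe sets were named by the platform annotation, with symbols updated by gene identifier to RefSeq GRCm38.p6 (34754 of 34958 single-gene probe sets matched). The 932 with several symbols and 9211 with none were left out. Genes and lists were chosen with earlier results of these data known. The text names all 8 genes, all measured genes of the short Fc receptor and ITAM lists, up to 4 with the largest differences of other lists, marker genes and nearest genes. Folds against a value below the floor use the floor and read "at least". Alternatives were median centring, a lowess trend (span 0.3), other filters, other probe set rules and thresholds of 1.5-fold and 4-fold. Python 3.11.15, numpy 2.4.6, pandas 2.3.3, statsmodels 0.14.6 and matplotlib 3.10.9 were used, and the calculation was tested on simulated data. The simulated differences were placed only in genes brighter on average than Fcgr1, Fcgr3, Fcgr4 and Fcer2a, so signals near the floor were not covered.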

Additional observations from a re-analysis of the deposited data

How the results depend on the processing

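Fcer1g, Fcgr3, Fcgr4, Fcgr2b, Fcgrt and Fcrla kept their direction in the alternatives run, with log2 differences of -4.74 to -4.70, -1.92 to -1.52, -1.48 to -1.45, -0.76 to -0.54, 0.87 to 0.91 and 2.14 to 2.61. Fcgr1 depended on its probe sets: it was at 0.10 as reported, -0.77 with both averaged and -1.65 with the probe set of the highest single value, an alternative chosen after seeing the data. With the threshold at 1.5-fold, 2 Fc receptor genes were higher in CD8+ DCs, as were 968 of all genes, and 1314 of all genes were lower. At that threshold 1 other Fc receptor gene, 2 other ITAM chains and 7 kinases and adaptors passed, all lower in CD8+ DCs. At 4-fold, 1 Fc receptor gene was lower in CD8+ DCs, 98 of all genes were higher and 239 lower, and 2 kinases and adaptors and 1 inhibitory gene passed. Centring each array on its median took 1 other Fc receptor gene, Fcrl1, past 2-fold and raised the kinases and adaptors past it to 6, from 4 as reported, and averaging all probe sets left 1 inhibitory gene past it. With the filter at the 75th percentile, 5 Fc receptor genes were measured and 2, without Fcgr3, were at least 2-fold lower in CD8+ DCs. That filter, and setting low values to the floor, left 2 of the 3 receptors that pair with the γ chain past 2-fold. No paired analysis was possible because each population has 1 array, and for the same reason no replicate could be left out. Fcgr1, Fcgr3 and Fcer2a lie near or below the floor, where background limits what a difference can show.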
